A study of Mus musculus with 24 samples.

Results

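The genes described here are 56 mouse DNA repair genes, read across murine embryonic fibroblasts (MEFs) that had lost the transcription factor Myc, the factor Mlx of a related network, or both. Members were taken by name from a list arranged by repair pathway, which was chosen with earlier results of these data known. All 56 were found among the 41710 genes of the deposited tables. There were 11 genes of homologous recombination, 7 of the Fanconi anemia pathway, 4 of mismatch repair, 10 of base excision repair, 8 of nucleotide excision repair, 7 of end joining, 8 of damage signalling and 1 of translesion synthesis (Polh). RNA was sequenced from 24 libraries, 3 for each of 4 genotypes (WT, MlxKO, MycKO and the double knockout, DKO) in primary MEFs and in MEFs immortalized with SV40 T-antigen, and each kind of culture came in a table of its own.

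All cultures descended from pooled embryos carrying floxed Myc and/or Mlx alleles together with a Cre recombinase fused to the estrogen receptor (CreER) and driven from ROSA26, a promoter active in most cells. Excision was brought about in culture with 4-hydroxytamoxifen at 500 nM, whereas WT cells kept intact loci, and the labels do not say for each WT library whether it had received the drug or the ethanol vehicle. Immortalized cells had been transduced with a lentivirus encoding SV40 T-antigen, which disables p53 and Rb, and selected as a population with blasticidin. WT and KO immortalized cells thus had the same kind of virus and selection, but each floxed line was transduced separately. The paper used a single WT line in most cases and does not say which, so genotype cannot be told apart from line of origin. It also reports that most immortalized MycKO cells became tetraploid or nearly so, which cannot be told apart from Myc loss here. The study asked whether KO MEFs were impaired in recognizing and repairing DNA damage, and the comparisons below ask how the repair transcripts themselves differed.

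Cells mend DNA by several routes. Base excision repair removes single damaged bases, nucleotide excision repair cuts out bulky lesions such as those made by ultraviolet light, and mismatch repair corrects copying errors behind the replication fork. Breaks are either rejoined directly by end joining or copied from the sister chromatid by homologous recombination, which also works with the Fanconi anemia proteins at crosslinks, and the kinases Atm and Atr relay the presence of damage. Transcripts for many recombination, Fanconi and mismatch proteins are made mostly in cells that are copying their DNA. Myc binds the E-box CACGTG as a dimer with Max, and Mlx binds related sites with the glucose-sensing proteins MondoA and ChREBP.

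Values are in CPM, reads counted on a gene scaled to the size of its library, with between 15986856 and 20966163 reads per library falling on genes. A value of 3 reads, taken as the floor of detection and covering counting error only, was worth 0.145 to 0.196 CPM. Genes reaching 1 CPM or more in 3 or more of a table's 12 libraries were tested with limma on log2(CPM + 1), a scale that understates the change of low genes, and a gene was said to rise or fall where its p, adjusted by Benjamini-Hochberg over all genes tested, was under 0.05. All 56 members passed this filter in both tables, among 13101 primary and 12880 immortalized genes. The labels do not say that the 3 libraries of a group came from separate cultures, so p-values measure the spread between libraries, and with 3 libraries against 3 an exact permutation test of a single gene could not go below 0.10. RNA from whole cultures cannot tell fewer cells of a kind from less RNA per cell.

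Myc RNA was lower in every MycKO and DKO library than in every WT library of its table, by -1.79 (MycKO) and -2.08 (DKO) on the log2 scale in primary and by -2.41 and -3.38 in immortalized cells. Mlx RNA fell by 0.76 and 1.02 in primary MlxKO and DKO cells, and by 0.71 in immortalized MlxKO cells, but its difference of -0.44 in immortalized DKO cells did not pass the test (adjusted p = 0.0694). Fibroblast markers summed to 42753 to 58686 CPM in primary and 18011 to 34569 CPM in immortalized libraries, whereas macrophage markers reached 664.5 CPM in primary WT libraries against 57.04 to 87.26 CPM in primary MycKO libraries. In immortalized cells macrophage markers did not exceed 5.909 CPM, and 5 of the 12 were at 0 throughout. One library stood apart: immortalized WT library 4 correlated with the other WT libraries at 0.943 to 0.950 across genes, against 0.983 to 0.996 over the 22 other pairs within groups, it held 177.5 CPM of Myc against 48.1 and 39.9 CPM, and 39 of the 56 members were above their mean in the other WT libraries. Counts that use immortalized WT cells, and the members described in full there, are therefore given with and without it, and calls that changed without it are named.

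In primary MEFs without Myc the repair genes were lower than in WT cells far more often than they were higher. In MycKO cells 31 of the 56 members fell and 3 rose, where 21.9% of all genes tested fell and 20.4% rose (42.3% in all), and the median log2 difference from WT was -0.41 for the members against 0.00 for all genes. In DKO cells 34 fell and 2 rose, against 25.5% and 24% of all genes (49.5% in all), with a median of -0.45. Loss of Mlx alone moved 3 members, 2 down and 1 up, where 5.14% and 3.75% of all genes fell and rose (8.88% in all), and its median was -0.12. Members whose MycKO libraries all lay below all WT libraries numbered 32, and those above numbered 4, against 24.6% and 23.4% of all genes. For DKO cells these numbers were 36 and 5, against 30.8% and 30% of all genes. The MlxKO count of 3 was 1 without WT library 1 or 2 or MlxKO library 6, and 7 without WT library 3.

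**Figure D1:**
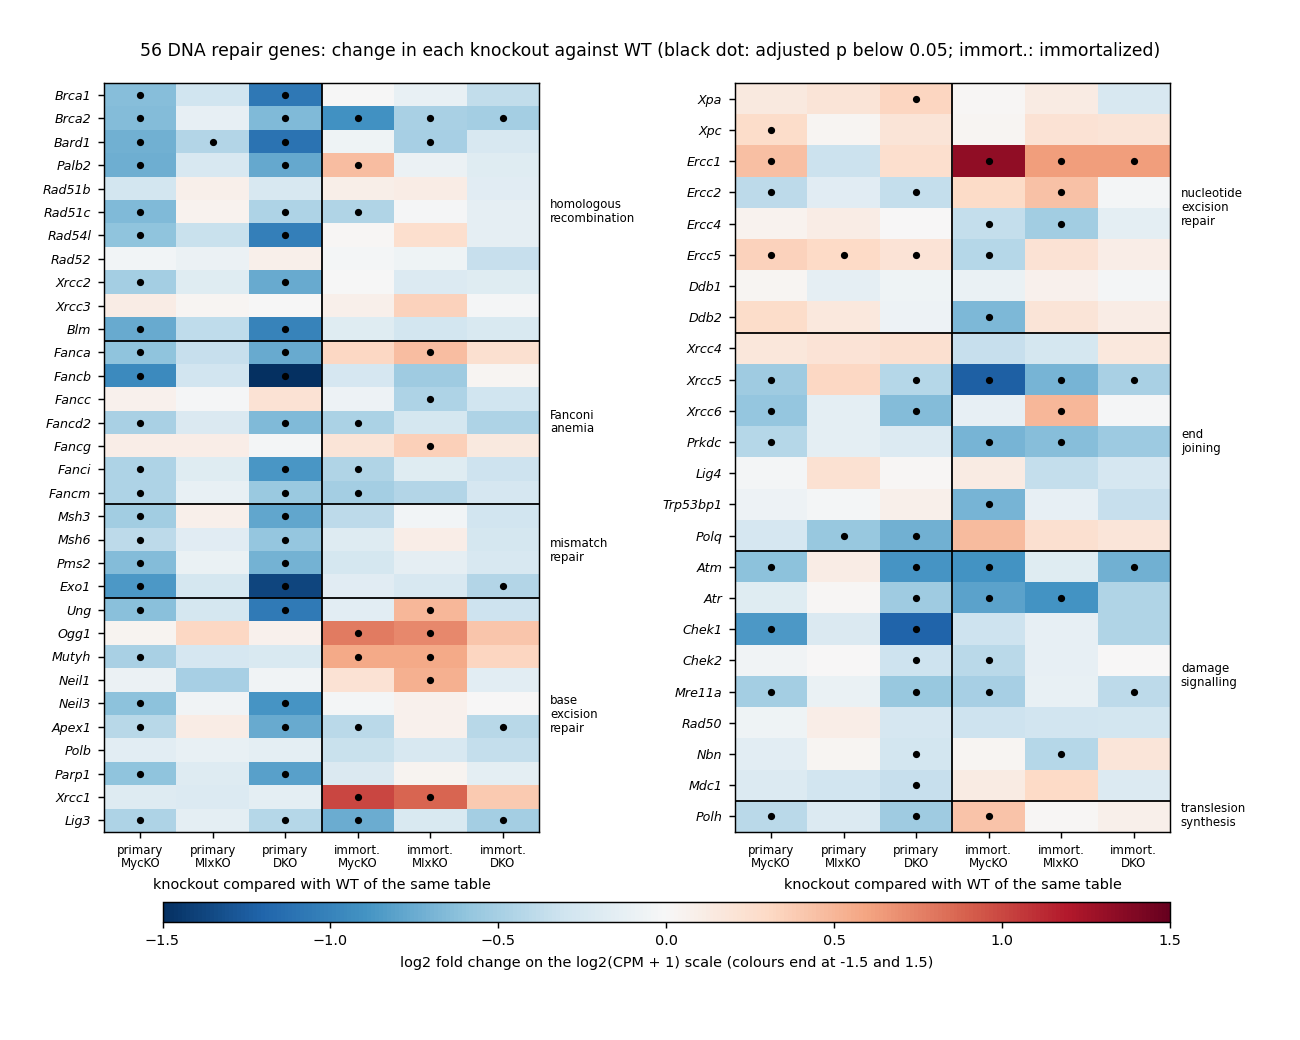
Log2 fold change of each of the 56 repair genes (rows, grouped by pathway) in MycKO, MlxKO and DKO cells against WT of the same table (columns; blue lower, red higher, colours ending at -1.5 and 1.5), with a black dot where the adjusted p was under 0.05. The primary MycKO and DKO columns are blue for recombination, Fanconi and mismatch genes and pale or red for nucleotide excision repair, and the immortalized columns mix red and blue.

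The pathways did not move as 1 block. All 4 mismatch repair genes fell in both primary MycKO and primary DKO cells, as did 8 of the 11 recombination genes and 5 of the 7 Fanconi genes. Of the 10 base excision repair genes 6 fell in MycKO and 5 in DKO cells. End joining lost 3 of its 7 genes in each. Of the 8 damage signalling genes 3 fell in MycKO and 7 in DKO cells. Nucleotide excision repair was divided, with 3 of its 8 genes higher and 1 lower in MycKO cells, 2 higher and 1 lower in DKO cells, where 24% of all genes rose and 25.5% fell, and a median log2 difference of 0.21 and 0.10. Of 16 further genes of that pathway that are no members, 3 passed in MycKO cells, all lower, and 5 were lower and 1 higher in DKO cells, with medians of -0.12 and -0.19.

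**Figure D2:**
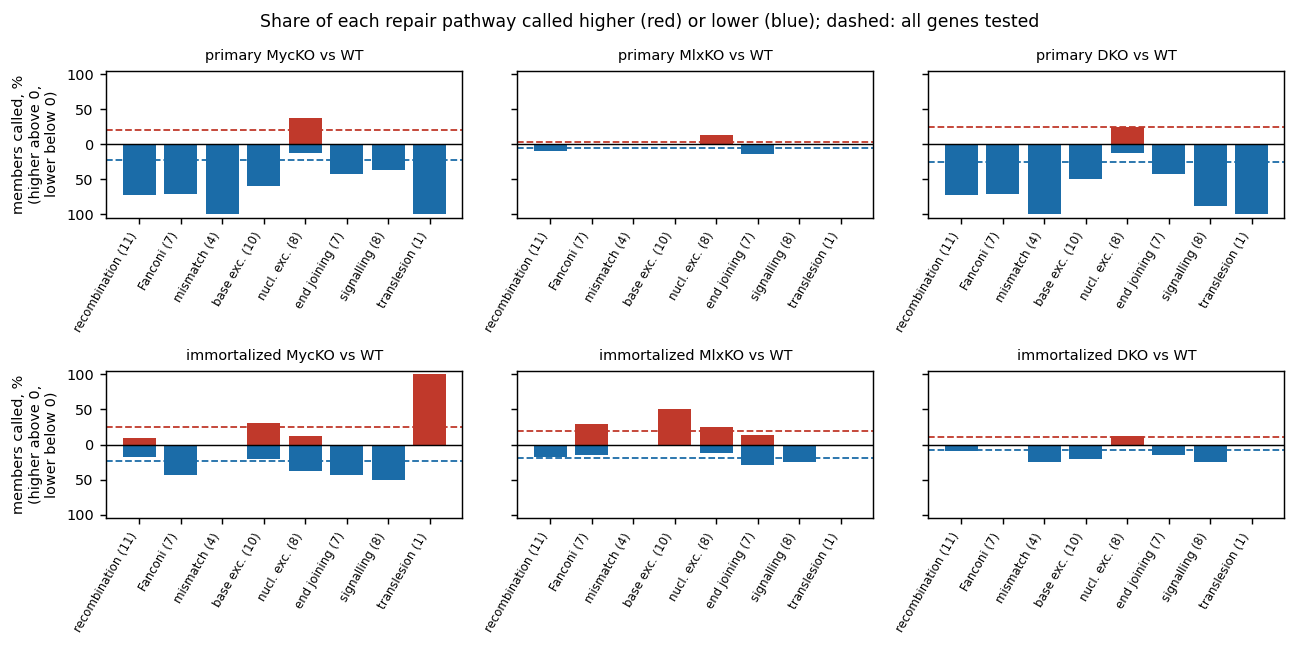
Percent of each pathway's members (number tested in brackets) that rose (red, upward) or fell (blue, downward) in each KO group against WT, with dashed lines at the percent of all genes tested in that comparison. In primary MycKO and DKO cells the downward bars of recombination, Fanconi and mismatch genes pass the lines at 21.9% and 25.5%, and nucleotide excision repair alone has an upward bar.

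Promoter sequences are shown for the members with the largest falls and rises in primary MycKO cells, to let the letters be read beside the values that follow. Each is the RefSeq window (GRCm38.p6) running from 250 bases before to 50 bases after the start of transcription, read 5′ to 3′ on the gene's own strand, and 47 of the 56 members had one, with 52 windows in all. Capitals mark a CCAAT box (CCAAT, or ATTGG when read on the other strand) or a CHR element (TTTGAA, or TTCAAA on the other strand), a motif known from promoters of cell cycle genes. Windows were also searched on both strands for the E-box CACGTG and for the E2F-type sites TTTCCCGC, TTTGGCGC, TTTCGCGC and TTTGCCGC, which were not in these 5 windows. Other spellings of E2F-type sites were not searched, so these windows are not shown to lack such a site. The Chek1 window, for one, ends in ttttggcgggaa, which differs from TTTGGCGC in its last letter. Fancb, Chek1 and Blm were, with Exo1 (no window), the 4 members with the largest falls, and Ercc1 and Ercc5 those with the largest rises.
Fancb, chrX:164980342-164980641, plus strand: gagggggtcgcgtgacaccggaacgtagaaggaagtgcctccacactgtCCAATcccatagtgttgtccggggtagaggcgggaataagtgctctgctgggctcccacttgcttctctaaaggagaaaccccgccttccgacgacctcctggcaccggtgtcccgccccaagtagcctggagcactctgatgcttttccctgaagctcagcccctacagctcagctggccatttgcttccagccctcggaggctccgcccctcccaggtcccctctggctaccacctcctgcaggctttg
Chek1, chr9:36726609-36726908, minus strand: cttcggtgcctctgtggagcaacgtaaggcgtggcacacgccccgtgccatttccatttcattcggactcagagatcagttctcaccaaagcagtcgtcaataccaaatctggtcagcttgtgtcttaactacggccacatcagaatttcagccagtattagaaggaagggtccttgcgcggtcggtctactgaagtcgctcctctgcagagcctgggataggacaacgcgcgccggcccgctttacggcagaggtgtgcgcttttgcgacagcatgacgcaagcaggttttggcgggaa
Blm, chr7:80534949-80535248, minus strand: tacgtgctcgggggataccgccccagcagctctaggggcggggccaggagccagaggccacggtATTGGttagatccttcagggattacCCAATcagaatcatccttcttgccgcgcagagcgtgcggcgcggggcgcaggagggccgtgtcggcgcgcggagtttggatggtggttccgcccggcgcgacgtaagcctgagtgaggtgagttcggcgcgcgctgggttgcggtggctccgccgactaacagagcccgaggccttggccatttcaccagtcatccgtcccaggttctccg
Ercc1, chr7:19344821-19345120, plus strand: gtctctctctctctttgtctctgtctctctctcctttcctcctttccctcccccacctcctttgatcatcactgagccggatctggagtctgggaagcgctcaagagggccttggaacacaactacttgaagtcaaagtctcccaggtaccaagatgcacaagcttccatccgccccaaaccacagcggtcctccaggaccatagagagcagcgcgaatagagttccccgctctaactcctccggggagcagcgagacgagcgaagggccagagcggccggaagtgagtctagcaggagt
Ercc5, chr1:44147494-44147793, plus strand: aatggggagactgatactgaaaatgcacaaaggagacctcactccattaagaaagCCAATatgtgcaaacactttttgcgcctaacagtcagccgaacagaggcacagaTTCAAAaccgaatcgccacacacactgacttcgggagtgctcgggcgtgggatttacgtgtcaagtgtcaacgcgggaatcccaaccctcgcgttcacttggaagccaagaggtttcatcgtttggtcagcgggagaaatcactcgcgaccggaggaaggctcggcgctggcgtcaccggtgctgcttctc
The CCAAT box of Fancb began 201 bases before the start, those of Blm 186 and 161 bases before it, and that of Ercc5 195 bases before it, where Ercc5 also had a CHR element at 141 bases.

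Over all members with a window, the E2F-type spellings searched were in 9 of 47 genes (19.1%), against 2.6% of the 27025 gene symbols in the table. These genes were Brca2, Bard1, Rad51c, Fancg, Msh3, Msh6, Xrcc6, Chek2 and Mdc1. Of these 9, 6 fell in primary MycKO cells, as did 27 of the 47 members with a window. The letters were in 22.2% of the members that fell and in 16.7% of those that did not pass the test. The E-box was in 4 members (8.51%, against 8.09% of all symbols), the CCAAT box in 26 (55.3% against 41.1%) and the CHR element in 4 (8.51% against 20.2%). The shares of all symbols include genes that were not tested here, whereas all members were, and no share was taken over tested genes only. Of the 27 members with a window that fell in primary MycKO cells 4 held an E-box, and of the 18 with a window that did not pass the test 0 did. Those 4 genes, chosen for display after their values had been seen, were Xrcc5, Parp1, Lig3 and Apex1, and the letters around their E-boxes (capitals) are given on the same build.
Xrcc5, chr1:72307193-72307258, plus strand: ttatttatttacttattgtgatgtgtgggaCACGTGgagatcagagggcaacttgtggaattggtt
Parp1, chr1:180568812-180568877, plus strand: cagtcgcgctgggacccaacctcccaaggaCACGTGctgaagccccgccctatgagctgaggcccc
Lig3, chr11:82781058-82781123, plus strand: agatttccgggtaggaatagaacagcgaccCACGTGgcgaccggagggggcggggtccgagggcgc
Apex1, chr14:50924895-50924998, plus strand: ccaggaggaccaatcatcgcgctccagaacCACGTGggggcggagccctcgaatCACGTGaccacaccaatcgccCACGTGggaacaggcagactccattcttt
Apex1 had 3 E-boxes within this stretch. A match to these letters describes the window and does not show a bound site.

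Among the mismatch repair genes the clearest difference lay in Exo1, the exonuclease that removes the strand carrying the error (chromosome 1, 175708143 to 175741055 on GRCm39). Its level was 15.3, 12.4 and 14.3 CPM in primary WT libraries, 12.05, 11 and 11.45 CPM in MlxKO, 7.15, 6.475 and 8.12 CPM in MycKO and 4.85, 4.07 and 5.41 CPM in DKO libraries. Its 4 groups did not overlap and stood in that order, with log2 differences from WT of -0.86 ± 0.12 (SE, adjusted p = 2.77e-05) in MycKO and -1.38 ± 0.12 (SE, adjusted p = 1.3e-07) in DKO cells. Msh3 and Msh6, which recognize mismatches as parts of separate complexes, fell by 0.52 and 0.39 in MycKO cells and by 0.78 and 0.58 in DKO cells. Pms2, which nicks the strand to be corrected, fell by 0.65 and 0.71. Pms2 shares exon bases with Aimp2 on the opposite strand, which fell by 0.56 in MycKO cells. Whether the authors' counting used strand is not given in the sources used here, so reads of such pairs cannot be told apart, and 38 of the 56 members share exon bases with a gene on the other strand.

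Recombination genes fell across the steps of the pathway. Blm, the helicase that dissolves joined DNA strands, was at 16.6, 18.1 and 17.7 CPM in WT, 13.3, 14.2 and 12.1 CPM in MlxKO, 9.87, 13.15 and 7.42 CPM in MycKO and 9.5, 7.5 and 7.72 CPM in DKO libraries. WT libraries lay above all others, while MycKO and DKO libraries overlapped, and the differences from WT were -0.76 ± 0.15 (SE, adjusted p = 0.000639) and -1.01 ± 0.15 (SE, adjusted p = 3.77e-05). Bard1, the partner that Brca1 needs to act as a ubiquitin ligase, measured 11, 10.9 and 11.3 CPM in WT, 8.37, 8.67 and 6.88 CPM in MlxKO, 6.21, 7.33 and 5.53 CPM in MycKO and 4.24, 4.17 and 5.53 CPM in DKO libraries. All 9 KO libraries were below the 3 WT libraries, and Bard1 was the only recombination gene to pass the test in every primary KO comparison with WT, at -0.44 (adjusted p = 0.0493) in MlxKO, -0.72 (adjusted p = 0.000304) in MycKO and -1.11 (adjusted p = 3.55e-06) in DKO cells. The first of these lay at the threshold and did not pass with library totals, with a pseudocount of 0.1 or without the filter. Brca1 itself, on chromosome 11 from 101379577 to 101442781, ran from 21.8, 22.2 and 18.9 CPM in WT through 15.7, 18 and 16.8 CPM in MlxKO and 13, 15.6 and 11.1 CPM in MycKO to 8.84, 9.93 and 9.445 CPM in DKO libraries. No group overlapped its neighbour, and the differences from WT were -0.64 (adjusted p = 0.000319) in MycKO and -1.08 (adjusted p = 1.24e-06) in DKO cells.

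The other recombination genes that fell in both were Brca2 and Palb2, which act together at the strand exchange step (-0.65 and -0.73 in MycKO cells), Rad51c and Xrcc2, which also take part in that step (-0.66 and -0.51) and the motor protein Rad54l (-0.60). In DKO cells these 5 fell by 0.66, 0.76, 0.47, 0.76 and 1.03 in the same order. Rad51b, Rad52 and Xrcc3 passed the test in no primary comparison with WT, and Rad51b was low, at 0.847, 1.36 and 1.99 CPM in WT libraries. The summed level of the 11 recombination genes was 106.1 to 111.4 CPM in WT, 89.62 to 91.98 CPM in MlxKO, 65.95 to 81.56 CPM in MycKO and 59.58 to 64.49 CPM in DKO libraries, so that none of the 4 groups overlapped.

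Fancb, a subunit of the Fanconi core complex that marks crosslinked DNA, showed the largest fall of any member. It lies on the X chromosome at 163762976 to 163781273 and was at 8.97, 8.31 and 8.065 CPM in WT, 6.93, 6.1 and 7.24 CPM in MlxKO, 3.99, 4.775 and 3.04 CPM in MycKO and 2.35, 2.8 and 1.84 CPM in DKO libraries. The groups did not overlap, and DKO libraries, though low, stayed above the floor of detection. Differences from WT were -0.95 ± 0.15 (SE, adjusted p = 7.64e-05) in MycKO and -1.51 ± 0.15 (SE, adjusted p = 4.4e-07) in DKO cells. Mospd2, with which Fancb shares exon bases on the opposite strand, differed by 0.07 in MycKO cells (adjusted p = 0.656) and fell by 0.31 in DKO cells. Fanca, Fancm, Fancd2 and Fanci also fell in both groups, by 0.46 to 0.60 in MycKO and by 0.56 to 0.88 in DKO cells, whereas Fancc and Fancg did not pass the test in either. Fanconi genes summed to 90.64 to 95.84 CPM in WT, 76.51 to 85.88 CPM in MlxKO, 60.43 to 78.88 CPM in MycKO and 60.07 to 60.63 CPM in DKO libraries.

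Within base excision repair the first enzymes and the ones that finish the patch were both among those that fell. Ung, which removes uracil from DNA, was at 7.39, 7.6 and 8.24 CPM in WT, 5.7, 7.775 and 5.6 CPM in MlxKO, 4.99, 4.51 and 4.53 CPM in MycKO and 2.96, 3.33 and 3.34 CPM in DKO libraries. MlxKO libraries overlapped WT, whereas MycKO and DKO libraries lay below both and apart from each other, at -0.62 ± 0.13 (SE, adjusted p = 0.001) and -1.06 ± 0.13 (SE, adjusted p = 5.1e-06) from WT. Parp1, which senses broken strands and carries an E-box in its window, fell from 78.1, 79.1 and 73.3 CPM in WT to 53.4, 45.9 and 51 CPM in MycKO and 45.6, 40.7 and 43.5 CPM in DKO libraries. Its differences were -0.61 (adjusted p = 4.46e-06) and -0.82 (adjusted p = 1.3e-07), and the highest KO library of the 6 was below the lowest WT library. Apex1, the endonuclease that cuts at sites left without a base, fell by 0.42 and 0.75, the glycosylase Neil3 by 0.62 and 0.89, and the ligase Lig3 by 0.46 and 0.43, in MycKO and DKO cells in that order. Mutyh, which removes adenine paired with oxidized guanine, fell by 0.49 in MycKO cells, its DKO difference being -0.23 (adjusted p = 0.248). Ogg1, Neil1, the gap-filling polymerase Polb and the scaffold protein Xrcc1 passed the test in neither.

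Nucleotide excision repair held the members that rose. Ercc5, the nuclease that cuts on one side of the lesion, was at 26.1, 27.5 and 28.3 CPM in WT, 34, 33.5 and 34.2 CPM in MlxKO, 32.5, 39.1 and 33 CPM in MycKO and 30.3, 31.1 and 33.6 CPM in DKO libraries. All 9 KO libraries lay above all 3 WT libraries, with differences of 0.30 (adjusted p = 0.0283), 0.34 (adjusted p = 0.00316) and 0.21 (adjusted p = 0.0458), and Ercc5 was the only member to rise in all 3 comparisons. Ercc1, which cuts on the other side as a dimer with Ercc4, stood at 28.95, 28.5 and 20.2 CPM in WT and 40.7, 28.9 and 37.2 CPM in MycKO libraries. The lowest MycKO library fell just inside the WT range although the difference passed the test, at 0.45 ± 0.13 (SE, adjusted p = 0.0108), and in DKO cells it was 0.25 (adjusted p = 0.123). Xpc, which detects the distorted helix, rose by 0.28 in MycKO cells (adjusted p = 0.0479). Xpa, which verifies the lesion, was at 7.62, 7.01 and 6.9 CPM in WT and 10.4, 8.66 and 8.58 CPM in DKO libraries, which did not overlap, and rose by 0.32 (adjusted p = 0.0254). In the opposite direction, the helicase Ercc2 went from 23.4, 27.1 and 23.3 CPM in WT to 18.5, 18.2 and 18.6 CPM in MycKO and 19.8, 20.8 and 16.4 CPM in DKO libraries. Its groups did not overlap with WT, and the differences were -0.40 (adjusted p = 0.00546) and -0.36 (adjusted p = 0.00842). With values divided by each library's own total, neither Ercc5 nor Xpa passed the test in DKO cells. Ercc4, Ddb1 and Ddb2 passed the test in no primary comparison with WT.

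End joining divided by gene. Xrcc6, the smaller subunit of the Ku ring that caps broken ends, was at 24.4, 25.6 and 21.5 CPM in WT, 18.1, 12.4 and 16.6 CPM in MycKO and 14, 15.5 and 14.8 CPM in DKO libraries, at -0.59 ± 0.12 (SE, adjusted p = 0.000918) and -0.65 (adjusted p = 0.000282) from WT. Its larger partner Xrcc5 fell by 0.53 and 0.43, and the kinase Prkdc that Ku recruits fell by 0.42 in MycKO cells only (DKO -0.21 (adjusted p = 0.118)). Polq, the polymerase of end joining at short matching stretches, behaved otherwise, with 13.3, 12.7 and 11.6 CPM in WT, 8.0, 9.15 and 7.39 CPM in MlxKO, 9.15, 12 and 10.1 CPM in MycKO and 7.82, 7.24 and 6.68 CPM in DKO libraries. MlxKO and DKO libraries were all below WT while MycKO libraries reached into the WT range, and the differences were -0.56 ± 0.12 (SE, adjusted p = 0.00674) in MlxKO, -0.72 (adjusted p = 0.000105) in DKO and -0.26 (adjusted p = 0.0957) in MycKO cells. Polq was thus the member with the largest fall upon loss of Mlx alone, but the Mlx effect without and with Myc was not shown to differ (interaction 0.10 (adjusted p = 0.771)). Xrcc4, Lig4 and Trp53bp1 passed the test in neither MycKO nor DKO cells.

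Damage signalling was where DKO and MycKO cells differed most in the number of genes called. Chek1, the kinase that halts the cycle downstream of Atr, was at 12.3, 12.1 and 12.2 CPM in WT, 9.33, 11.7 and 10.3 CPM in MlxKO, 7.04, 7.195 and 4.83 CPM in MycKO and 4.85, 4.595 and 4.72 CPM in DKO libraries. WT libraries agreed closely and lay above all 9 others, MycKO and DKO libraries overlapped slightly, and the differences were -0.86 ± 0.13 (SE, adjusted p = 6.42e-05) and -1.21 ± 0.13 (SE, adjusted p = 1.48e-06). Atm, which responds to double strand breaks, was at 31.8, 35.7 and 31.7 CPM in WT, 19.5, 25.05 and 19.8 CPM in MycKO and 19.4, 18.2 and 15 CPM in DKO libraries, and fell by 0.61 and 0.89. Mre11a, the nuclease of the complex that activates Atm, fell by 0.51 and 0.57. Atr, Chek2, Nbn and Mdc1 passed the test in DKO but not in MycKO cells, having fallen by 0.53, 0.32, 0.27 and 0.35. Their MycKO differences lay between -0.20 and -0.05, and the difference between DKO and MycKO cells itself passed the test for none of the 8 signalling genes, although all 8 were below 0. Polh, which copies past ultraviolet lesions, went from 32.3, 28.7 and 31.8 CPM in WT to 25.2, 23 and 21.5 CPM in MycKO and 20.4, 21.2 and 21.7 CPM in DKO libraries. All 6 KO libraries were below WT, at -0.40 (adjusted p = 0.00209) and -0.53 (adjusted p = 0.000154).

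DKO and MycKO cells were also compared directly in primary cultures, where few members differed. Of the 56 members 8 passed the test, all of them lower in DKO cells, where 11% of all genes fell and 10.6% rose (21.5% in all), and the members' median was -0.12. The largest of these were Fancb (-0.56 ± 0.15 (SE, adjusted p = 0.0117)), Exo1 (-0.52 ± 0.12 (SE, adjusted p = 0.00558)), Polq (-0.46 ± 0.12 (SE, adjusted p = 0.00992)) and Brca1 (-0.44 ± 0.12 (SE, adjusted p = 0.0111)), each with its DKO libraries all below its MycKO libraries. Ung, Rad54l, Bard1 and Apex1 made up the rest, at -0.43, -0.43, -0.38 and -0.33. Group means stood in the order WT, MlxKO, MycKO, DKO from high to low for 22 of the 56 members (39.3%), against 12.1% of all genes tested. This order held for 7 of the 11 recombination, 5 of the 7 Fanconi and 3 of the 4 mismatch genes, but for 0 of the 8 nucleotide excision genes. Neighbouring groups in it often did not differ beyond their spread, since MlxKO against WT passed the test for 3 members only. Leaving out primary DKO library 13, 14 or 15 left 3, 5 or 4 members lower than in MycKO cells.

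Whether Mlx loss acted differently without Myc was tested as an interaction, the DKO minus MycKO difference less the MlxKO minus WT difference. In primary cells 1 member passed, Ercc5 at -0.44 ± 0.12 (SE, adjusted p = 0.0175), where 13.5% of all genes did, and the members' median was -0.02. Ercc5 rose upon either loss alone, and its difference from WT was smallest in DKO cells. At an unadjusted p under 0.05 there were 7 members, and DESeq2 on the recovered reads called 2. The count was 0 without WT library 1 or DKO library 13, and 2 without MlxKO library 6 or MycKO library 10.

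Other transcripts moved with these falls. All 18 genes of a proliferation list (genes of DNA copying and cell division that are no members, such as Mki67 and Mcm2) fell in primary MycKO and DKO cells, with medians of -0.70 and -1.10, and 15 of the 18 fell in MlxKO cells. Their summed level was 1710 to 1795 CPM in WT, 1351 to 1399 CPM in MlxKO, 1016 to 1181 CPM in MycKO and 786.6 to 832.8 CPM in DKO libraries, which is the order seen above for recombination genes. A list of 16 p53 targets had 7 members higher and 1 lower in primary MycKO cells, and summed to 2496 to 2621 CPM there against 2066 to 2156 CPM in WT and 2011 to 2083 CPM in DKO libraries. Macrophage markers, given above, were lower in the MycKO and DKO libraries too, at 117.6 to 271.6 CPM in the latter. Epithelial markers summed to 16.5 to 19.9 CPM in WT against at most 2.76 CPM in MycKO and DKO libraries, endothelial markers to 13.9 to 15.5 against 5.06 to 8.83 CPM, and neural markers to 93.3 to 110.2 against 128.9 to 169.6 CPM. Epithelial markers were also low in MlxKO libraries, at 3.23 to 4.83 CPM. Mitochondrial RNA was 20725 to 28059 CPM in WT, 17233 to 27511 CPM in MycKO and 15633 to 17274 CPM in DKO libraries. The part that cell division, or cells of another kind, had in the repair gene values was not tested.

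**Figure D3:**
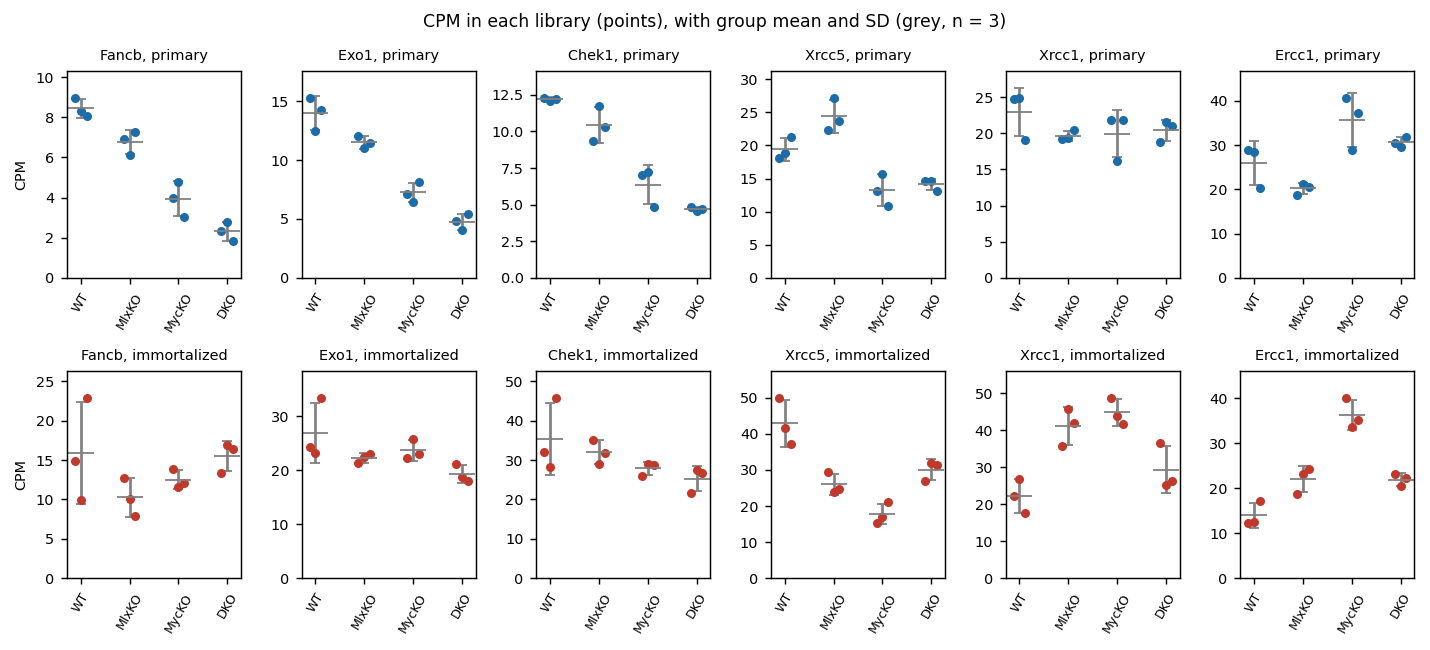
CPM of Fancb, Exo1, Chek1, Xrcc5, Xrcc1 and Ercc1 in each library (points), by genotype, in primary (upper row) and immortalized cells (lower row), with the mean and SD of each group of 3 in grey and axes starting at 0. Primary Fancb and Exo1 step down from WT to DKO without overlap, from 8.07 to 8.97 CPM in WT to 1.84 to 2.80 CPM in DKO libraries for Fancb, while in immortalized cells the MycKO and MlxKO libraries of Xrcc5 lie below, and those of Xrcc1 and Ercc1 above, all WT libraries.

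In immortalized cells calls went in both directions, with more members lower than higher upon loss of Myc. MycKO cells had 17 members lower and 6 higher, where 23.5% and 24.4% of all genes tested fell and rose (48% in all), with a median of -0.16. MlxKO cells had 8 members lower and 10 higher (19.9% and 19.1% of all genes) with a median of -0.08, and DKO cells 7 lower and 1 higher (8.51% and 10.4%) with a median of -0.20. Without WT library 4 the counts were 16 lower and 7 higher for MycKO, 8 lower and 10 higher for MlxKO and 6 lower and 1 higher for DKO, against 26.7% and 27.3%, 23.8% and 23.1%, and 10.1% and 12% of all genes. The medians were then -0.05, -0.01 and -0.14. The calls lost without it were Fancd2 and Fancm in MycKO, Neil1 in MlxKO and Exo1 and Mre11a in DKO cells, those gained were Xrcc4 and Polq in MycKO, Rad54l in MlxKO and Prkdc in DKO cells, and the other calls against WT passed both ways. Fits of only the groups compared called 14 members for MycKO, 11 for MlxKO and 1 for DKO, and the 23 MycKO calls fell to 15 without WT library 2, the 18 MlxKO calls to 8 without MlxKO library 6 or 7, and the 8 DKO calls to 1 without DKO library 13, to 3 without WT library 2 and to 4 without DKO library 14 or 15. Dividing by each library's own total moved the median of all genes to 0.16 in MlxKO cells and split their calls into 13 higher and 4 lower. Members whose libraries did not overlap with WT numbered 21 below and 7 above in MycKO cells, where 25.1% and 26% of all genes did so. In the proliferation list 2 genes passed the test in these MycKO cells, both higher, and its sums were 3179 to 3355 CPM in MycKO against 3277 to 4110 CPM in WT libraries, the last value being WT library 4.

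One property ran through the immortalized comparisons and bears on each value in them. When all genes tested were ranked by the bases their exons cover, the median log2 difference of the 25% with the shortest exons was 0.23 for MycKO, 0.21 for MlxKO and 0.12 for DKO cells, and that of the 25% with the longest was -0.20, -0.21 and -0.11. In primary cells the medians of all 4 length groups lay between -0.02 and 0.02. The 8 members that fell in immortalized MlxKO cells had a median of 14352 exon bases, and the 10 that rose one of 4637. With this trend subtracted, an adjustment chosen after seeing the data, 14 members fell and 7 rose in immortalized MycKO cells, and 5 fell and 6 rose in MlxKO cells, of which 9 were the same genes as before. The part of transcript length in the repair genes' differences was otherwise not tested. Immortalized KO libraries also differed from WT in mitochondrial RNA, at 8788 to 12807 CPM in MycKO against 31360 to 35023 CPM in WT libraries.

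End joining had the largest immortalized fall. Xrcc5, the larger Ku subunit (chromosome 1, 72346532 to 72434112), was at 49.95, 41.7 and 37.1 CPM in WT, 29.4, 24 and 24.85 CPM in MlxKO, 15.4, 17.1 and 21 CPM in MycKO and 26.9, 32.1 and 31.4 CPM in DKO libraries. Every KO library lay below every WT library, MycKO libraries lowest, and DKO libraries were all above MycKO libraries. The differences from WT were -1.22 ± 0.15 (SE, adjusted p = 5.53e-05) in MycKO, -0.69 ± 0.15 (SE, adjusted p = 0.00433) in MlxKO and -0.49 ± 0.15 (SE, adjusted p = 0.0411) in DKO cells, and without WT library 4 they were -1.32, -0.79 and -0.59. Xrcc5 is the gene whose E-box stretch opens the second set of sequences, and it has no exon overlap with another gene. Its Ku partner Xrcc6 did the reverse in MlxKO cells, from 25.2, 29.1 and 31.8 CPM in WT to 41.6, 38.6 and 41.7 CPM, without overlap, a rise of 0.50 ± 0.12 (SE, adjusted p = 0.00621) that was 0.57 without WT library 4, and did not pass the test in MycKO (-0.13 (adjusted p = 0.386)) or DKO cells (-0.01 (adjusted p = 0.947)). Unlike Xrcc5, Xrcc6 shares exon bases with a gene on the opposite strand, Desi1, which rose by 0.48 in MlxKO cells. Prkdc fell by 0.70 in MycKO and by 0.64 in MlxKO cells, and Trp53bp1, which steers breaks toward end joining, by 0.69 in MycKO cells.

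Among the damage kinases Atm and Atr fell. Atm was at 99.4, 75.35 and 96.4 CPM in WT, 40.5, 55 and 49.1 CPM in MycKO and 57.15, 60.9 and 45.3 CPM in DKO libraries, with MlxKO libraries (81.5, 79.2 and 77.2 CPM) inside the WT range. The falls were -0.89 ± 0.15 (SE, adjusted p = 0.000473) and -0.72 ± 0.15 (SE, adjusted p = 0.00653), and -0.84 and -0.67 without WT library 4. Atr measured 57.3, 42.1 and 64 CPM in WT, 33.2, 25.8 and 26.6 CPM in MlxKO, 25.9, 33.2 and 32.6 CPM in MycKO and 32.9, 43.3 and 41.4 CPM in DKO libraries. Either single loss left it below every WT library (-0.90 ± 0.18 (SE, adjusted p = 0.0025) and -0.80 ± 0.18 (SE, adjusted p = 0.00281)) while DKO libraries overlapped WT (-0.45 (adjusted p = 0.0872)), and without WT library 4 the single-loss values were -0.77 and -0.67. Mre11a fell in MycKO and DKO cells by 0.50 and 0.39, the DKO value being -0.33 (adjusted p = 0.0641) without that library. Chek2 fell in MycKO cells by 0.40 and Nbn in MlxKO cells by 0.43. Chek1, which had fallen most among signalling genes in primary cells, passed the test in no immortalized comparison, at -0.31 in MycKO and -0.45 in DKO cells.

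Recombination genes gave calls in both directions. Brca2 (chromosome 5, 150446057 to 150496080) was at 46.7, 39.45 and 50.6 CPM in WT, 32.7, 33.1 and 30.9 CPM in MlxKO, 21.3, 24.7 and 25.1 CPM in MycKO and 29, 36.65 and 29.3 CPM in DKO libraries. All KO libraries were below WT, at -0.91 ± 0.13 (SE, adjusted p = 0.000169) in MycKO, -0.48 (adjusted p = 0.0132) in MlxKO and -0.51 ± 0.13 (SE, adjusted p = 0.0189) in DKO cells. Without WT library 4 these were -0.84, -0.40 and -0.44. Palb2, which tethers Brca2 to Brca1, rose in MycKO cells, from 6.79, 7.66 and 6.63 CPM in WT to 9.3, 10.5 and 10.5 CPM, by 0.47 ± 0.13 (SE, adjusted p = 0.0113), or 0.43 without that library. Its DKO libraries, at 6.6, 5.66 and 5.91 CPM, were all below the MycKO and the WT libraries, the difference from WT being -0.19 (adjusted p = 0.325). Rad51c fell by 0.46 in MycKO cells. Bard1 passed the test in MlxKO cells, having fallen from 35.8, 30.0 and 39.9 CPM to 27.1, 21.3 and 25.3 CPM (-0.50 ± 0.14 (SE, adjusted p = 0.0127), or -0.41 without that library), which did not overlap. Brca1, Blm, Rad54l, Xrcc2, Xrcc3, Rad51b and Rad52 passed the test in no immortalized comparison with WT. Brca2 shares exon bases with N4bp2l1 on the opposite strand, which fell by 0.89 in MycKO cells.

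The Fanconi and mismatch genes, most of which fell in primary MycKO cells, gave fewer calls in immortalized cells. Fancm, which anchors the core complex to DNA, had 33.85, 32.5 and 45.2 CPM in WT and 21.3, 28 and 28 CPM in MycKO libraries, a fall of -0.51 ± 0.17 (SE, adjusted p = 0.024) that did not pass without WT library 4 (-0.36, adjusted p = 0.0617) or after the length adjustment. Fancd2 and Fanci, the pair that the core complex marks with ubiquitin, fell by 0.47 and 0.45, and without that library Fancd2 was at -0.38 (adjusted p = 0.0655). In MlxKO cells Fanca went from 42.9, 40.9 and 45.5 CPM to 55.5, 66.3 and 57.8 CPM, higher in 3 of 3 libraries than in any WT library (0.46 ± 0.14 (SE, adjusted p = 0.0243)), and Fancc from 17.4, 19.4 and 17.7 CPM to 14.8, 12.4 and 11.6 CPM, lower in 3 of 3 (-0.47 ± 0.14 (SE, adjusted p = 0.0236)). Without WT library 4 these were 0.50 and -0.48. Fancg also rose in MlxKO cells, by 0.36. Zfp276, which shares exon bases with Fanca on the opposite strand, rose by 0.63 in the same MlxKO cells. Exo1 was the 1 mismatch gene called, in DKO cells, at 21.2, 18.8 and 18 CPM against 24.2, 23.25 and 33.4 CPM in WT libraries, a fall of -0.44 ± 0.14 (SE, adjusted p = 0.049) that was -0.29 (adjusted p = 0.109) without WT library 4. Fancb, which had fallen most in primary cells, measured 14.9, 9.99 and 22.9 CPM in WT and 13.4, 16.9 and 16.5 CPM in DKO libraries, which overlapped.

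Of the 10 base excision genes 5 rose and 0 fell in immortalized MlxKO cells, and 3 rose and 2 fell in MycKO cells. Of all genes tested 19.1% rose and 19.9% fell in MlxKO, and 24.4% rose and 23.5% fell in MycKO cells. Xrcc1, the scaffold that holds Lig3, was at 22.2, 26.7 and 17.5 CPM in WT, 35.75, 45.8 and 41.95 CPM in MlxKO, 48.7, 43.9 and 41.8 CPM in MycKO and 36.6, 25.1 and 26.2 CPM in DKO libraries. Both single KO groups lay wholly above WT (0.88 ± 0.18 (SE, adjusted p = 0.00283) and 1.00 ± 0.18 (SE, adjusted p = 0.000693)) and DKO libraries overlapped it (0.39 (adjusted p = 0.139)), the single-loss values being 0.73 and 0.85 without WT library 4. The glycosylases Ogg1 and Mutyh rose in MycKO cells by 0.78 and 0.57 and in MlxKO cells by 0.72 and 0.57, and Ung and Neil1 rose in MlxKO cells. Without WT library 4 Neil1 was at 0.47 (adjusted p = 0.0563), which left 4 of the 5 MlxKO rises. Lig3 went the other way, from 58, 55.9 and 69.9 CPM in WT to 30.6, 41.5 and 36.9 CPM in MycKO and 43, 41.1 and 44 CPM in DKO libraries. These did not overlap with WT, and the differences were -0.74 ± 0.13 (SE, adjusted p = 0.000676) and -0.51 ± 0.13 (SE, adjusted p = 0.0193), or -0.65 and -0.41 without WT library 4. Apex1 fell by 0.41 and 0.42 in the same groups, and Parp1 passed the test in none.

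Among nucleotide excision genes Ercc1 had the largest rise of any member (chromosome 7, 19075881 to 19090450). It was at 12.3, 12.5 and 17.2 CPM in WT, 18.7, 23.1 and 24.2 CPM in MlxKO, 40.1, 33.6 and 35.1 CPM in MycKO and 23.2, 20.4 and 22.2 CPM in DKO libraries. All KO libraries exceeded all WT libraries, MycKO libraries by the most, at 1.33 ± 0.15 (SE, adjusted p = 3.09e-05) in MycKO, 0.63 ± 0.15 (SE, adjusted p = 0.00738) in MlxKO and 0.63 ± 0.15 (SE, adjusted p = 0.0144) in DKO cells. Without WT library 4 the values were 1.47, 0.77 and 0.78. Cd3eap, which overlaps it on the opposite strand, rose by 0.91 in MycKO and 0.69 in MlxKO cells. The nuclease partner Ercc4 fell in MlxKO cells, from 27.5, 23.4 and 24 CPM in WT to 17, 18.9 and 15.4 CPM, without overlap (-0.53 ± 0.12 (SE, adjusted p = 0.00652), or -0.55 without WT library 4). That call is uncertain, since 35.3% of the 50-base stretches of Ercc4 also occur in other genes, and it did not pass after the length adjustment. Ddb2, which finds ultraviolet lesions in chromatin, was at 7.85, 9.54 and 4.02 CPM in WT and 3.37, 3.9 and 4.45 CPM in MycKO libraries. WT library 4, at the low end here, overlapped the MycKO libraries, and the fall of -0.67 ± 0.24 (SE, adjusted p = 0.0354) was -0.98 (adjusted p = 0.00025) without it. Ercc5 fell in MycKO cells by 0.42, and Ercc2 rose in MlxKO cells by 0.44. Polh, lower upon primary loss of Myc, was higher here, at 53.8, 55.6 and 56 CPM in MycKO against 37.3, 36.7 and 49.9 CPM in WT libraries (0.42 ± 0.13 (SE, adjusted p = 0.0163), or 0.56 without WT library 4).

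In immortalized cells DKO and MycKO cells differed in both directions. DKO against MycKO cells had 6 members higher and 3 lower, where 14.8% and 14.6% of all genes were, with a median of -0.02, and with library totals 5 and 5. Without DKO library 14 or 15 the 9 calls were 3 or 4. The largest differences were Ddb2 (0.78 ± 0.24 (SE, adjusted p = 0.0268)), Xrcc5 (0.73 ± 0.15 (SE, adjusted p = 0.00306)), Ercc1 (-0.70 ± 0.15 (SE, adjusted p = 0.00421)) and Palb2 (-0.65 ± 0.13 (SE, adjusted p = 0.00247)), and in each the DKO group mean lay nearer to WT than the MycKO mean did. The interaction passed the test for 18 members, 9 above and 9 below 0, where 47.4% of all genes passed, and with library totals 5 above and 15 below. Without DKO library 14 there were 13. Exon length went with the interaction too, the median of all genes being -0.33 in the shortest group and 0.32 in the longest. The 9 members above 0 had a median of 12238 exon bases, and the 9 below one of 6728. Xrcc1 (-1.49 ± 0.25 (SE, adjusted p = 0.000541)) was raised by either loss and less raised by both. Ercc1 (-1.32 ± 0.21 (SE, adjusted p = 0.000447)) was raised by 0.63 in both DKO and MlxKO cells, which was less than in MycKO cells (1.33). Xrcc5 (1.42 ± 0.21 (SE, adjusted p = 0.000278)) and Atr (1.24 ± 0.25 (SE, adjusted p = 0.00169)) were lowered by either loss and less lowered by both. Without WT library 4 the interaction of these 4 was -1.34, -1.47, 1.52 and 1.12, and 26 members passed, where 28% and 28.6% of all genes lay past the threshold above and below 0. With and without that library a smaller share of the members than of all genes passed.

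Whether the KO effect itself differed between immortalized and primary cells was tested in 1 fit of all 24 libraries, as the immortalized KO minus WT difference less the primary one. For MycKO it was positive for 19 members and negative for 7, where 21.4% and 18.2% of all genes were (39.7% in all), with a median of 0.18 against 0.04 over all 12402 genes tested. For DKO it was positive for 18 and negative for 2 (11.4% and 9.79% of all genes, median 0.32), and for MlxKO 11 and 6 (18.2% and 20.3%, median 0.01). Without immortalized WT library 4 these counts were 22 and 6, 21 and 3, and 13 and 8, where 26.7% and 22.8%, 17.3% and 14.9%, and 22.5% and 24.2% of all genes passed in each direction. Of the recombination genes 6 passed for MycKO and 6 for DKO, all positive, with medians of 0.51 (MycKO) and 0.58 (DKO), and of the base excision genes 5 passed for MycKO, all positive. Nucleotide excision and end joining were divided, with 2 positive and 3 negative each for MycKO. The tables were normalized separately, so the fit compares differences from WT and not levels. Exon length went with these differences over all genes. Medians of the shortest and longest groups were 0.31 and -0.19 for MycKO, 0.16 and -0.10 for DKO and 0.22 and -0.23 for MlxKO. With library totals the counts were 22 and 4, 21 and 0, and 16 and 4, the median of all genes being then 0.14, 0.10 and 0.13, and without immortalized WT library 2 the MycKO total was 17.

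**Figure D4:**
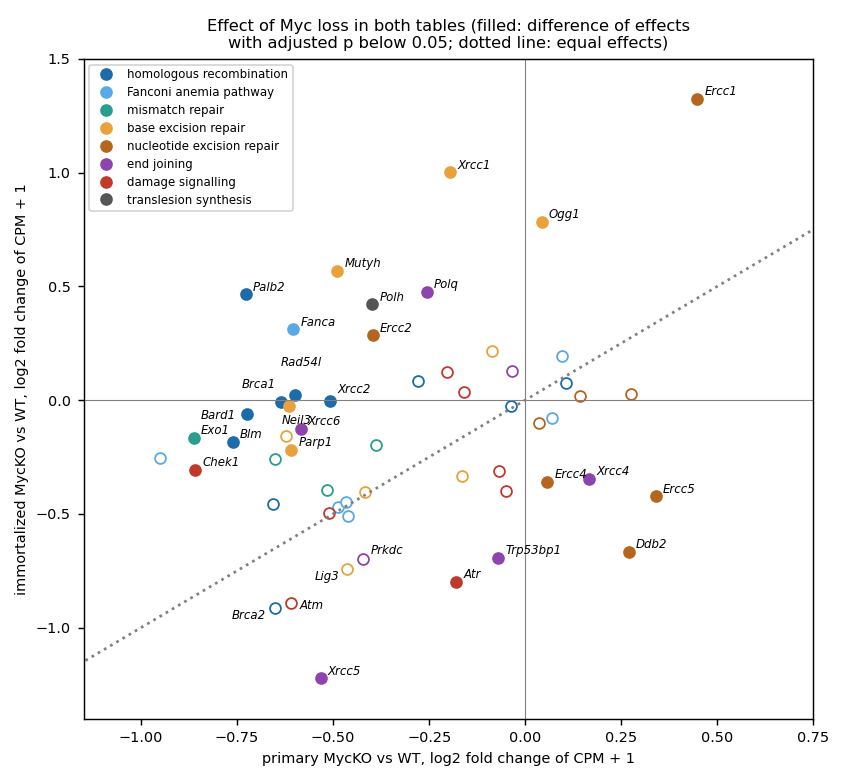
Log2 fold change of each member in MycKO against WT cells, primary on the x axis and immortalized on the y axis, coloured by pathway, with filled points where the difference between the effects had an adjusted p under 0.05 and a dotted line of equal effects. Recombination genes such as Palb2 lie left of 0 and above the line (-0.73 primary, 0.47 immortalized), and Xrcc5, Atr, Ddb2 and Ercc5 lie below it.

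The 4 largest differences of the MycKO effect were in base excision repair (Xrcc1 and Mutyh), recombination (Palb2) and nucleotide excision repair (Ddb2). Xrcc1 differed by 1.20 ± 0.22 (SE, adjusted p = 0.000283), its primary libraries being 24.7, 24.9 and 19.05 CPM in WT and 21.8, 16.2 and 21.8 CPM in MycKO cells, which overlapped. Palb2 differed by 1.19 ± 0.20 (SE, adjusted p = 0.000109), having gone from 4.23, 4.51 and 5.14 CPM to 2.72, 2.09 and 2.39 CPM in primary cells and having risen in immortalized cells. Mutyh did likewise, at 3.1, 2.335 and 2.34 CPM in primary WT against 1.66, 1.18 and 1.84 CPM in primary MycKO libraries and 3.4, 3.16 and 3.77 CPM in immortalized WT against 5.93, 4.94 and 5.91 CPM in immortalized MycKO libraries, a difference of 1.06 ± 0.21 (SE, adjusted p = 0.000624). Palb2 and Mutyh therefore fell in 1 table and rose in the other. Ddb2 differed in the negative direction (-0.94 ± 0.28 (SE, adjusted p = 0.0112)), with 2.765, 2.5 and 2.22 CPM in primary WT and 3.66, 2.81 and 3.19 CPM in primary MycKO libraries, which did not overlap, and the immortalized fall given above. Without immortalized WT library 4 the 4 values were 1.04, 1.16, 1.11 and -1.25. The primary difference of Ddb2 did not itself pass the test. Acp2, which shares exon bases with Ddb2 on the opposite strand, rose by 0.36 in primary MycKO cells. In immortalized MycKO cells Acp2 differed by 0.02 (adjusted p = 0.899). Polh differed by 0.82, and Fancb by 0.70 (adjusted p = 0.0666) for MycKO and 1.55 (adjusted p = 0.000763) for DKO. Without that library the Fancb values were 0.98 (adjusted p = 0.00239) and 1.83 (adjusted p = 5.86e-06), so that its MycKO difference passed.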

How the data were processed

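Poly(A) RNA libraries were mapped by the authors in CLC Genomics Workbench, with GRCm39 as the genome. A table of 41710 genes was deposited for each kind of culture. The deposited values are a signal in CPM. Their sums of 915691 to 1077213 per library are not equal, so a further scaling had been applied, whose name is not given in the sources used here. All values above 0 were whole multiples of 1 read within 0.001 read, which gave back the read counts.

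Library columns carry numbers that are not the replicate numbers of the labels, and groups come from the labels. Members and gene lists were chosen with earlier results of these data known. Differences were tested with limma 3.58.1 (R 4.3.3, trend in the spread) on log2(CPM + 1), 1 fit for the 12 libraries of a table and 1 for all 24, with Benjamini-Hochberg adjustment over all genes tested. Full values are given for the largest called rise and fall of each pathway in each comparison with WT, and for up to 4 members in each other comparison. Alternatives were a pseudocount of 0.1, no filter, library totals, median-ratio scaling, both DESeq2 1.42.0 and edgeR 4.0.16 fitted to the reads so recovered, fits of only the groups compared, and leaving out each library. The exon length adjustment and the fits without immortalized WT library 4 were chosen after seeing the data. The fits were tested on simulated data. For primary MycKO against WT, limma recovered 96% of the 2-fold and 83% of the 1.5-fold changes put in. For the difference of the MycKO effect between cultures it recovered 54% and 13%, so members not called there may still differ. Promoter windows and motif positions come from RefSeq, gene positions and exon overlaps from GENCODE, both matched by symbol or identifier. The authors' own comparisons were not used here.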

Additional observations from a re-analysis of the deposited data

Results flagged for a closer look

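The effect of Myc loss differed between immortalized and primary cells, by a test of the difference itself, in 26 of the 56 members (39.7% of all genes tested), that of MlxKO in 17 (38.5%) and that of DKO in 20 (21.2%). Singled out by size among the MycKO differences were Xrcc1 at 1.195, Palb2 at 1.194 and Mutyh at 1.058, each higher in immortalized cells relative to WT than in primary cells, and Ddb2 at -0.938, the reverse. On the log2 scale the immortalized and primary differences behind them were 1.00 and -0.20 for Xrcc1, 0.47 and -0.73 for Palb2, 0.57 and -0.49 for Mutyh, and -0.67 and 0.27 for Ddb2.

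The effect of Mlx loss differed with and without Myc, again by the interaction itself, in 1 member in primary cells (13.5% of all genes) and in 18 members in immortalized cells (47.4% of all genes). The primary member was Ercc5 at -0.436. The largest immortalized values were Xrcc1 at -1.491, Xrcc5 at 1.424, Ercc1 at -1.324 and Atr at 1.241, and in all 4 the DKO mean lay nearer to WT than the MycKO mean did. For these genes, in the order given, MlxKO minus WT was 0.88, -0.69, 0.63 and -0.90, and DKO minus MycKO was -0.61, 0.73, -0.70 and 0.35. The cause was not tested.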

How the results depend on the processing

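No paired analysis was possible because column numbers of the libraries do not map onto labelled replicate numbers, so no replicate block was fitted. Of the 63 named results, edgeR kept 63 past the threshold, DESeq2 59 of 59, the pseudocount of 0.1 62, library totals 60, median-ratio scaling 58 of 59, no filter 58, fits of only the groups compared 43 of 54 and the exon length adjustment 59, and none changed sign. The counts of members that moved were as follows. Fits of only the groups compared gave 14 in immortalized MycKO, 11 in MlxKO and 1 in DKO cells against WT. Without the filter primary DKO against MycKO gave 4. Primary MlxKO against WT gave 5 with median-ratio scaling, 5 with edgeR, 7 with DESeq2 and 6 with the exon length adjustment, which gave 11 in immortalized MlxKO cells. The primary interaction gave 2 with DESeq2 and 2 with the exon length adjustment. Leaving out 1 library gave 30 to 36 members in primary MycKO, 32 to 33 in DKO and 1 to 7 in MlxKO cells against WT, 3 to 8 in DKO against MycKO and 0 to 2 for the interaction. In immortalized cells the ranges were 15 to 23, 1 to 10, 8 to 18, 3 to 9 and 13 to 26 in that order, and 17 to 28, 15 to 24 and 15 to 21 for the MycKO, DKO and MlxKO differences between cultures. DESeq2, median-ratio scaling and fits of only the groups compared were not run for those differences. With 1 library left out a group has 2, whose spread is borrowed from the other groups. Rad51b, near 1 CPM in primary cells, rests on few reads.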

Other observations

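Other genes of the same repair pathways, listed by name and holding none of the 56 members, moved in the same tables. Of 112 tested in primary cells, 51 fell and 5 rose in MycKO (median -0.28) and 61 fell and 8 rose in DKO cells (median -0.33). Of all genes tested 21.9% fell and 20.4% rose in MycKO, and 25.5% fell and 24% rose in DKO cells. Mismatch repair and the replication enzymes it shares, 18 genes, had 15 lower and 2 higher in MycKO cells, with the clamp loader subunit Rfc4 lowest at -0.80 and the polymerase subunit Pold4 highest at 0.48. Damage signalling had 8 of 14 lower, H2ax, the histone marked at breaks, lowest at -0.80, and base excision repair 7 of 17 lower, the polymerase subunit Pole2 lowest at -0.99. Nucleotide excision repair had 3 of 16 past the test, all lower, which is near the share of all genes that fell.

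WT levels, set side by side although the tables were normalized separately and no test was made, were higher in immortalized than in primary cells for most members. The ratio of WT means had a median of 1.84 over the 56 members, from 0.54 for Ercc1 to 3.83 for Brca2, and exceeded 2 for 18 of them (32.1%, against 12.1% of the 12402 genes tested in both tables, whose median was 1.13). Without immortalized WT library 4 the members' median was 1.71, and 15 exceeded 2 (26.8%, against 12.6%). The median was 2.09 for mismatch repair and 0.994 for nucleotide excision repair, and 1.92 and 0.991 without that library.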
